A study of Mus musculus with 10 samples.

Results

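The 500 widest H3K4me3 regions in Glast+ cells of the mouse retina were chosen by intersecting the H3K4me3 islands of both experiments base by base, leaving out the X and Y chromosomes, and ranking the shared runs by width. They are 500 of 15771 autosomal shared regions. An island is a stretch of enriched windows joined by the peak caller. The cells came from retinas of C57BL/6 mice at postnatal day 28 and were selected for Glast (Slc1a3), the glutamate transporter of Müller glia, with no genotype or treatment that differs between samples. H3K4me3, H3K4me1, H3K27me3 and H3K9me3 were each profiled by chromatin immunoprecipitation and sequencing (ChIP-seq) in 2 experiments, Exp1 and Exp2, with chromatin of 25000 cells per immunoprecipitation. The labels do not say how many animals gave each experiment, so the spread between experiments may be technical. Since width chose the regions, their widths are a description, and the samples are 2 experiments of 1 condition, so no test was made.

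H3K4me3 marks the starts of active genes and of many CpG-rich genes that are silent. Most H3K4me3 domains are short, and unusually broad ones are known to lie over genes that define a cell's identity. H3K4me1 flanks promoters and marks enhancers. H3K27me3 is laid down by Polycomb complexes over silent developmental genes, and its co-occurrence with H3K4me3 is called bivalency. H3K9me3 marks heterochromatin, including repeats.

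Among the regions, 5 hold microRNA genes but no protein-coding gene and are not covered by H3K9me3. The mature microRNAs of 3 of them, in the RefSeq tables of GRCm38.p6, are shown because these regions hold only microRNA and long non-coding RNA genes, with the seed (bases 2 to 8) in capitals. The seeds of miR-182-5p and miR-96-5p match at 6 of 7 positions, those of miR-96-5p and miR-183-5p also at 6, and those of miR-182-5p and miR-183-5p at 5.
mmu-miR-9-5p: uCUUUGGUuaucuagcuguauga
mmu-miR-182-5p: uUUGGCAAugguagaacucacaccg
mmu-miR-96-5p: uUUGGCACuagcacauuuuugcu
mmu-miR-183-5p: uAUGGCACugguagaauucacu
mmu-miR-129-5p: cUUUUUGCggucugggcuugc

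Promoter windows from 250 bases before to 50 after the annotated start (RefSeq, GRCm38.p6) are shown for rod genes and, as a CpG-rich contrast, for Stk35, whose region is wider than any rod gene's. Capitals mark TAATCC or its complement GGATTA, the core motif of CRX-type homeodomain factors. The Crx and Aipl1 windows hold it 2 times each and the Sag window 1 time. No match was found in the windows of Prph2 and Stk35.
Crx, chr7:15879906-15880205, minus strand: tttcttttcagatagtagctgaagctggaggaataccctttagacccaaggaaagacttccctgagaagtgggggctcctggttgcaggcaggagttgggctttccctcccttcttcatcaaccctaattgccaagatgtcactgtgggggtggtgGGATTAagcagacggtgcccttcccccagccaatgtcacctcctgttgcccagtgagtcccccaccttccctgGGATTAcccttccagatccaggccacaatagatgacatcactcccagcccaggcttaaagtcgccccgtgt
Aipl1, chr11:72037460-72037759, minus strand: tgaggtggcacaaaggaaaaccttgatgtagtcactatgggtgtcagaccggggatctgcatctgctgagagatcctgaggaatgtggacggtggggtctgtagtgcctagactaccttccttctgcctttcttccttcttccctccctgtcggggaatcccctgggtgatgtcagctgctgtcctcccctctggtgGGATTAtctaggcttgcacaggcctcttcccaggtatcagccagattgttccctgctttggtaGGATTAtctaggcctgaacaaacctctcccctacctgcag
Sag, chr1:87803430-87803729, plus strand: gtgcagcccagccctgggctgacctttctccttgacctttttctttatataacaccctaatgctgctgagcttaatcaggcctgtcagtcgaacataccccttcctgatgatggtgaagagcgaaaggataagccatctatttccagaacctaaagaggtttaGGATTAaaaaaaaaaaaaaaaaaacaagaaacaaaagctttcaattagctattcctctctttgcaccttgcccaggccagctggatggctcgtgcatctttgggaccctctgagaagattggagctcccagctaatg
Prph2, chr17:46910228-46910527, plus strand: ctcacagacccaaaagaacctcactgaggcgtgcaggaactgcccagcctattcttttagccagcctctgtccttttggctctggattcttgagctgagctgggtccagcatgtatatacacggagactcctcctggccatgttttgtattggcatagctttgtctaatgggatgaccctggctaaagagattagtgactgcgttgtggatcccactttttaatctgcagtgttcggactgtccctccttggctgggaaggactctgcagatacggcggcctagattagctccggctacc
Stk35, chr2:129800267-129800566, plus strand: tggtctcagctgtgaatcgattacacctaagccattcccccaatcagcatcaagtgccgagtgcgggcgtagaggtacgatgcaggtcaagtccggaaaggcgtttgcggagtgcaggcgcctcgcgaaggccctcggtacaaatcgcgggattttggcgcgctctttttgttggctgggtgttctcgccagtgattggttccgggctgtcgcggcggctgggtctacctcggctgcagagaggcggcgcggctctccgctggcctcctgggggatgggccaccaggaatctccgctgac

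The regions ranged from 6.6 to 87.2 kb, with a median of 8.4 kb and quartiles of 7.4 and 10.4 kb, against a median of 2.4 kb over all shared regions. The next 500 by width, ranged from 5.4 to 6.6 kb. Together they spanned 5.18 Mb, or 11.9% of the shared H3K4me3 length. The islands that held them were 10 kb wide in the median for Exp1 and 8.8 kb for Exp2. The Exp1 island was the wider one for 347 regions, the Exp2 island for 129, and 24 were equal. For 33 regions the islands differed in width by more than a factor of 2. The lower limit fell among 50 regions of 6.6 kb, of which 17 were taken and 33 left out by the tie order. Just inside were regions over Abr, Sarm1 and Vtn, Cdk5r1 and Myo1d, Slc16a6 and Arsg, and Mbnl2. Just outside were regions over Dusp1, over Daxx, Zbtb22 and Tapbp, over Nrm and Ppp1r18, over Tgif1, and over Fem1c.

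**Figure D1:**
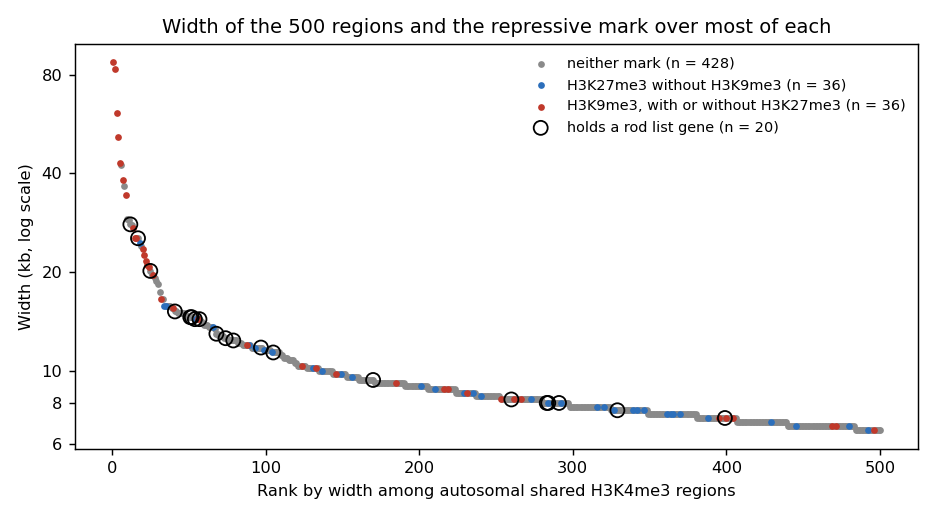
Width of each of the 500 regions (kb, log axis) against its rank by width, coloured by the repressive mark over most of its length (red for H3K9me3, blue for H3K27me3 without it, grey for neither), with regions holding a gene of the rod list circled. The H3K9me3 regions make up 11 of the 20 widest, 15 of the 24 widest and 18 of the 50 widest. The rod genes begin at rank 12.

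The regions were divided into a small set at H3K9me3-covered loci and a large set outside them. A region is called mostly under a mark when islands covered over 50% of its length in both experiments. Of the 500, 36 (7.2%) were mostly under H3K9me3, against 5.92% of all shared regions, and their median width was 15.0 kb against 8.2 kb for the other 464. A protein-coding gene was overlapped by 14 of the 36 and by 442 of the 464. The 36 were crowded at the top of the ranking, with 7 of the 10 widest and 11 of the 20 widest. They made up 15 of the 24 widest, 18 of the 50 widest and 20 of the 100 widest. Of the 36, 34 were also mostly under H3K27me3 (6.8% of the 500, against 4.71% of all shared regions). H3K27me3 without H3K9me3 lay over 36 regions (7.2%, against 8.56%), and 428 were mostly under neither (85.6%, against 85.5%). H3K9me3 without H3K27me3 lay over 2 (0.4%, against 1.21%), the Ogfod2 region and a region on chromosome 4 with no annotated gene.

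The widest region, 87.2 kb in both experiments (chromosome 8, 123537201 to 123624400, mm10), spanned 48 annotated 5S ribosomal RNA genes, which encode an RNA of the large ribosomal subunit. All of its length was under H3K4me1, H3K27me3 and H3K9me3 in both experiments. Another 8 regions lay between 19772001 and 20712000 on the same chromosome, summed to 271.4 kb, and included the second (83.0 kb, over Gm21119) and the third (61.0 kb). Their H3K27me3 and H3K9me3 cover was complete in both experiments, and 6 of them had no H3K4me1 in either. The islands there differed between experiments. At the region over Gm40469 (34.4 kb) the island was 130 kb in Exp1 and 52.0 kb in Exp2.

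On chromosome 7, from 59697601 to 59900400, 5 regions with a summed length of 139.2 kb lay over Snhg14, a long non-coding RNA that hosts clustered small nucleolar RNAs (snoRNAs) in an imprinted locus, and held 57 annotated snoRNA genes. In each of the 5, H3K4me1 differed between experiments. The 51.6 kb region had 0% of its length under H3K4me1 in Exp1 and 100% in Exp2, and the 43.0 kb region likewise 0% and 100%. On chromosome 4, 5 regions between 145768201 and 147746600 held 10 pseudogenes and the zinc-finger genes Zfp993, Zfp978 and Zfp991. On chromosome 5, 4 regions between 93854401 and 95537200 held only 1 protein-coding gene, Pramel35. A 22.6 kb region over Fcgr3, an Fc receptor gene, held 15 tRNA genes, and a 20.8 kb region lay over Hjurp, the chaperone of the centromeric histone. A 38.2 kb region at 3000401 to 3038600 on chromosome 9 held no annotated gene and had H3K4me1 over 0% of its length in Exp1 and 100% in Exp2.

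The authors' p-values of the H3K4me3 islands were larger at these 36 regions. The island's p-value was at or below the median of its list for 5 of 36 in Exp1 and 11 of 36 in Exp2, against 435 and 452 of the other 464. For the H3K9me3 islands there, the p-value was listed as 0 for 26 of 36 in Exp1 and 20 of 36 in Exp2. Arrays of near-identical copies, as at the 5S genes and snoRNAs, share short reads, and the placement of reads with several matches is not given in the sources used here. The part of read placement in these regions was not tested.

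Among the 20 widest, the regions outside H3K9me3 carried neither repressive mark except that of Pax6. The sixth and eighth widest regions, 42.6 and 36.6 kb on chromosome 6, lay over a run of predicted genes (Gm40363, Gm40364, Gm40365, Gm40367, Gm40369 and Gm36327) and Rn4.5s, annotated as a ribosomal RNA. In them H3K4me1 covered 96.7% and 97.2% of the wider one in Exp1 and Exp2 and all of the narrower one in both. The part of read placement in this pair of regions was not tested either. Gse1 lay in a 29 kb region (islands of 30.8 and 29 kb) and Stk35, a kinase gene, in one of 28.8 kb (29.6 and 28.8 kb), with H3K4me1 over 95.9% and 100% of the first and 100% and 81.9% of the second.

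H3K4me1 overlapped 467 of the 500 regions in both experiments (93.4%, against 81.1% of all shared regions) and covered most of the length of 388 (77.6%, against 71.3%). It lay over the midpoint of 345 (69.0%, against 67.8%). In the next 500 these shares were higher than in the widest, at 95.0%, 82.4% and 71.0%. In the 464 regions not mostly under H3K9me3 they were 97.6%, 81.9% and 72.4%. All 13 regions without H3K4me1 in either experiment (2.60%, against 4.37%) were mostly under H3K9me3, among them Gm21119, Gm40469 and Zfp993. Over the 464 other regions, H3K4me1 covered 92.4% of the summed length in Exp1 and 75.6% in Exp2, against 24.4% and 53.2% over the 36. H3K27me3 overlapped 72 regions (14.4%, against 13.5%) and was over most of the length of 70 (14%, against 13.3%), and H3K9me3 overlapped 38 (7.60%, against 6.06%) and lay over the midpoint of 36 (7.2%, against 5.93%). By count, both repressive marks were near their shares of all shared regions. Both were above their shares of the next 500, where H3K27me3 covered most of the length in 11.4% of regions and H3K9me3 in 3.4%. By summed length they covered more: H3K9me3 15.6% in Exp1 and 15.7% in Exp2, against 7.63% and 6.82% over all shared regions, and H3K27me3 22.7% and 23.7%, against 15.8% and 15.2%. Over the 464 other regions those values were 0.369% and 0.588% for H3K9me3 and 8.90% and 10.3% for H3K27me3. Both counts depended on the settings. Regions chosen and marked in Exp1 or Exp2 alone gave 121 and 125 with H3K27me3 and 90 and 73 with H3K9me3. Islands at or below the median p-value of their list gave 18 and 3. Leaving out the regions mostly under H3K9me3 left 38 and 2, which the removal itself sets. H3K27me3 and H3K9me3 islands were called in steps of 5000 and 3000 bp, so an overlap can reach past the enriched chromatin.

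**Figure D2:**
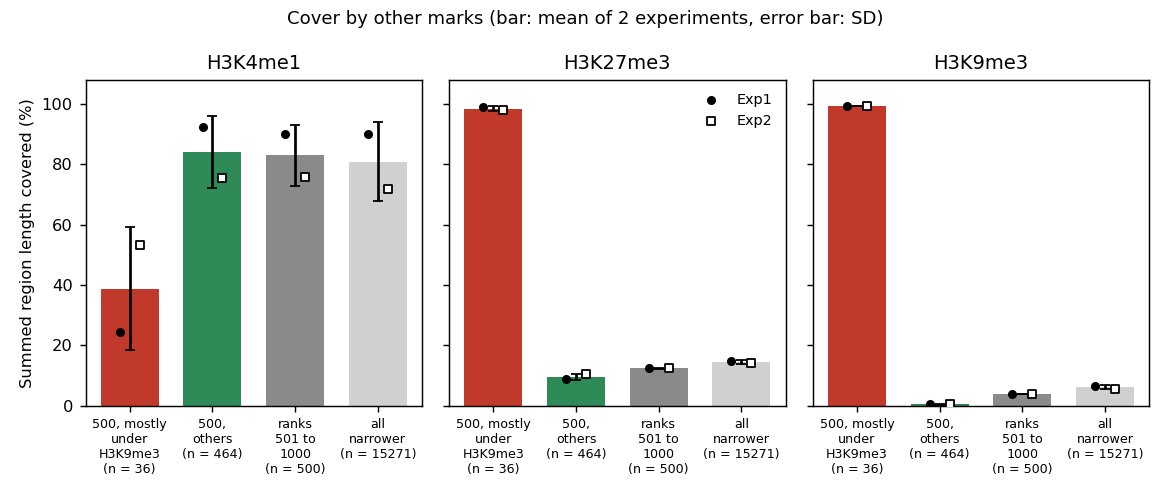
Share of the summed region length covered by each mark (%), for the 36 regions mostly under H3K9me3, the other 464, the next 500 and all narrower regions. Bars are means of 2 experiments, error bars are SD, and points are the experiments. H3K4me1 in Exp1 and Exp2 lies further apart (24.4% and 53.2%) over the 36 than over the 464 (92.4% and 75.6%).

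Protein-coding genes were overlapped by 456 regions (91.2%, against 86.8% of all shared regions), and 357 lay at or within 1 kb of an annotated gene end (71.4%, against 69.9%). Of the 484 regions off chromosome 18, whose starts were not used here, 318 held a protein-coding transcription start (65.7%, against 61.3%) and 42 held the starts of 2 or more genes (8.68%, against 5.91%). The next 500 were above the widest on each of these 4 measures, with 95.0% over a protein-coding gene, 78.0% at a gene end, 71.2% holding a start and 9.96% holding the starts of 2 or more genes. The 464 regions not mostly under H3K9me3 had 95.3%, 74.6%, 69.4% and 9.38%, the last 2 among 448 off chromosome 18. A whole protein-coding gene lay inside 77 regions (15.4%, against 2.12%), a long non-coding RNA gene was overlapped by 157 (31.4%, against 16.5%), and a tRNA gene was held by 6 (1.20%, against 0.729%). A wider region has more room for a gene, and the share of these counts due to width alone was not tested. In all, 553 of 20661 autosomal protein-coding genes were overlapped (2.68%, against 64.1% for any shared region). For 173 of the 553 over 50% of the gene was covered, and 90 were covered whole.

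Rod genes were held most often of the 21 lists compared. Of 24 autosomal rod genes, 19 were overlapped by one of the 500 by 1 bp or more (79.2%, against 2.68% of all autosomal protein-coding genes), in regions of 7.6 to 28 kb with a median of 12.6 kb. All 24 lay in some shared region, and 1 more, Gngt1, lay among the next 500. Regions with a rod gene were concentrated near the top, with 12 of 20 in the 100 widest, and 8 rod genes were covered whole. Cover was as low as 4.90% of the gene at Rp1, and requiring over 50% of the gene lowered the 20 regions to 11. The list was chosen with results of these data known, so its count is not independent evidence.

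Prph2, a disc-rim protein of the photoreceptor outer segment, lay with part of Ubr2 in a 28 kb region, in islands of 29.2 (Exp1) and 28 kb (Exp2). Crx, the homeodomain factor of photoreceptors, lay in a 25.4 kb region with Crxos, in islands of 26.6 and 25.8 kb. Both genes were covered from end to end, and their islands differed by under 2 kb between experiments. Gnb1, the beta subunit of rod transducin, had a 20.2 kb region inside the gene (islands of 26.4 and 20.2 kb) and a second of 7.2 kb over its start. Sag (rod arrestin) lay in a 15.2 kb region, from islands of 17.2 and 15.2 kb.

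The phosphodiesterase genes Pde6b, Pde6a and Pde6g lay in regions of 14.6, 12.6 and 8.2 kb. Pde6b had near-equal islands in the experiments (14.6 and 15.4 kb), while those of Pde6a (22.4 and 12.8 kb) and Pde6g (15.0 and 8.2 kb) were wider in Exp1. Nrl, the leucine-zipper factor that directs rod fate, and Nr2e3, the nuclear receptor downstream of it, had regions of 11.4 and 11.8 kb with islands within 1 kb of each other in the experiments. Gnat1, the transducin alpha subunit, went the other way: its island was 9.4 kb in Exp1 and 29.4 kb in Exp2, where the same island also held Slc38a3. Guca1a and Guca1b, calcium sensors of guanylate cyclase, lay in a single 25.6 kb island in Exp1 and in separate islands of 8.0 and 14.6 kb in Exp2.

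H3K4me1 was present over each of the 19 rod genes' regions, with a median cover of 100% in Exp1 and 77.8% in Exp2. Its lowest value was at Rp1, a microtubule protein of the outer segment, with 56.9% in Exp1 and 13.9% in Exp2. H3K27me3 lay over all of the Guca1a region in both experiments and over 15.1% of the Guca1b region, and over none of the other rod regions. H3K9me3 was absent from all 19.

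Cone genes were in shared regions but not in the 500. None of 11 autosomal cone genes lay in a member, 6 lay in the next 500, and the widest shared regions were those of Gnat2 and Gnb3, cone transducin subunits, at 6.4 kb each. The islands were 6.4 and 6.8 kb at Gnat2 and 8.4 and 6.4 kb at Gnb3 in Exp1 and Exp2, and 9.4 and 5.8 kb at Pde6c, a cone phosphodiesterase subunit. H3K27me3 covered all of the Gnat2 region in Exp1 and none in Exp2. The 6.6 kb limit is close to these widths, so membership separates them from the narrowest of the 500 by little.

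Müller glia genes were present but mostly narrower. Of 22 autosomal genes on the list, 6 were overlapped by one of the 500 (27.3%, against 2.68%), while all 22 lay in some shared region. The cover was only 1.63% of Nfia and 2.84% of Nfib, and requiring over 50% of the gene left 3 regions. Gpr37, a receptor, had an 11.8 kb region, from islands of 16.2 and 11.8 kb. Glul, glutamine synthetase, had 10.4 kb (13.0 and 10.4 kb) with 94.7% of the gene covered. H3K4me1 covered 50.0% of the Glul region in Exp1 and 5.77% in Exp2. Nfib and Nfia, nuclear factor I proteins, had regions of 9.8 and 8.8 kb, Car2, a carbonic anhydrase, 8.0 kb, and Dkk3, a secreted glycoprotein, 7.6 kb. H3K27me3 covered the Nfia region in Exp1 and none of it in Exp2, and H3K9me3 was on none of the 6.

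Other Müller glia genes lay further down the ranking. Slc1a3, the gene the cells were selected for, had a 4.8 kb region from islands of 6.0 and 4.8 kb. Sox9, a glial transcription factor, also had 4.8 kb, and Rlbp1, the retinaldehyde-binding protein, 3.6 kb. Genes of several cell types thus lay in the shared regions, which overlapped 64.1% of all autosomal protein-coding genes. All listed rod (24 of 24), cone (11 of 11), bipolar (15 of 15) and Müller glia (22 of 22) genes did. Other retinal lists were lower, with 10 of 13 amacrine, 13 of 20 ganglion and 3 of 6 horizontal cell genes. Microglia had 1 of 12 and endothelium and pericytes 6 of 15. Housekeeping (16 of 16) and immediate early genes (20 of 20) also all lay there, so this is not particular to retinal cell types. Bulk ChIP-seq does not tell a mark in Müller glia from one in other cells of the preparation, and the part of rods in the rod regions was not tested.

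**Figure D3:**
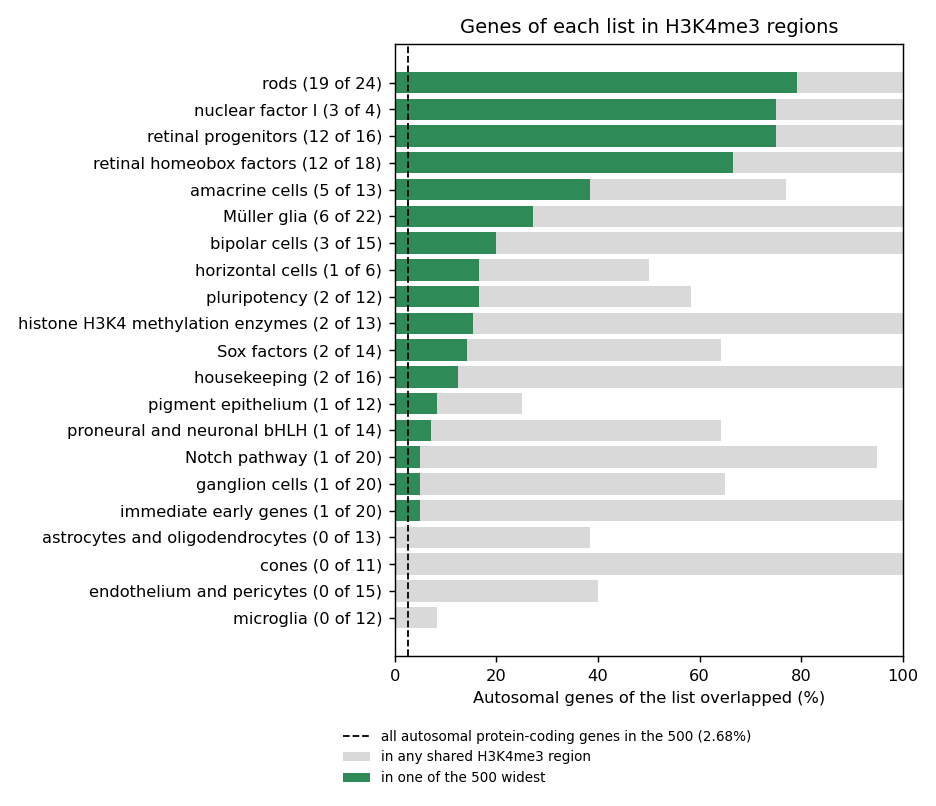
Share of each list's autosomal genes overlapped by one of the 500 (green) or by any shared H3K4me3 region (grey), in percent; the dashed line is the 2.68% of all autosomal protein-coding genes. Rods have 19 of 24 in the 500, Müller glia 6 of 22 and cones 0 of 11.

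Genes of retinal progenitors were also held often, with 12 of 16 in the 500 (75%), in regions of 7.6 to 24.6 kb with a median of 9.8 kb. Of the 12, 6 were covered whole. Pax6, the eye-field factor, had 24.6 kb from islands of 24.8 (Exp1) and 27.8 kb (Exp2). Six3 had 19.6 kb (20.4 and 20.6 kb), Tbx2 15.8 kb (16 and 17.8 kb) and Six6 13.6 kb (14.8 and 13.6 kb). These islands were of similar width in both experiments. Rax (10.8 kb), Meis2 (10 kb), Meis1 (9.6 kb), Lhx2 (9.0 kb), Sox2 (8.6 kb), Hes5 (8.4 kb) and Vax2 (8.2 kb) followed. Of the homeobox list, which overlaps the progenitor list, 12 of 18 were held (66.7%), among them Crx, Otx2 (17.4 kb), Isl1 (15.8 kb) and Prox1 (12.6 kb).

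The progenitor genes divided by H3K27me3. Pax6, Tbx2, Lhx2, Sox2 and Vax2 were covered by it over 97.6% or more of the region in both experiments, and the other 7 had none in either. H3K9me3 was on none of the 12. Six3, Six6, Rax, Meis1, Meis2 and Hes5 were thus under H3K4me3 without either repressive mark, with H3K4me1 over 50.0% of the Six3 region, 39.7% of the Six6 region and 37.5% of the Meis1 region in Exp2 and 73.5%, 73.5% and 91.7% in Exp1.

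Several other lists were also above the 2.68% of all genes. Amacrine cell genes had 5 of 13 (38.5%; Pax6, Slc32a1, Tfap2a, Barhl2 and Slc6a9), of which Slc6a9, a glycine transporter, had no H3K27me3, while the other 4 were covered by it. Bipolar cell genes had 3 of 15 (20%), Otx2, Isl1 and Prdm8. Of nuclear factor I genes 3 of 4 (75%) were held: Nfia, Nfib and Nfic (10.4 kb, islands of 17.8 and 11.4 kb). The other lists had 1 or 2 genes each or none. The horizontal cell list had Prox1 of 6, the ganglion cell list Ebf3 of 20, the proneural bHLH list Neurod1 (10.8 kb) of 14 and the Notch list Hes5 of 20. Histone H3K4 methylation enzymes had Kdm5b (13.6 kb), a demethylase, and Setd1b (11.4 kb), a methyltransferase, of 13. Sox factors had Sox2 and Sox8 of 14, pluripotency genes Sox2 and Esrrb (14 kb) of 12, housekeeping genes Eef2 and Polr2a of 16, immediate early genes Junb of 20, and pigment epithelium Otx2 of 12. No gene of the microglia, endothelium and pericyte, or astrocyte and oligodendrocyte lists was held.

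The 36 regions under H3K27me3 but not mostly under H3K9me3 (7.2%, against 8.56% of all shared regions) had a median of 8.3 kb. Of these 36, 33 overlapped a protein-coding gene. The 5 widest lay over Pax6, Tbx2, Isl1 (a LIM-homeodomain factor), Gmppa and Asic4, and Cyth2, Kcnj14 and Grwd1, all at 97.6% to 100% H3K27me3 cover in both experiments. Isl1 had little H3K4me1, 13.9% of its length in Exp1 and 6.33% in Exp2, and H3K9me3 over 44.3% of its length in Exp1 and all of it in Exp2. Slc32a1, the vesicular transporter of GABA and glycine, had islands of 12.0 and 12.2 kb and complete H3K27me3 cover. The transcription factor genes Tfap2a, Barhl2, Prdm8, Ebf3 and Sox8 were also in the set, each covered by H3K27me3 over its whole region. Where a gene carried both marks in bulk chromatin, marks on the same nucleosomes and marks in different cells cannot be told apart.

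Regions held 23 microRNA genes in 17 regions (3.40%, against 0.926% of all shared regions and 2.2% in the next 500). All shared regions held 162 such genes, and the 500 spanned 11.9% of the shared length. The part of width in this count was not tested. Of the 17, 5 held no protein-coding gene. Mir9-2 lay in a 27.8 kb region (islands of 33.6 (Exp1) and 27.8 kb (Exp2)), Mir124a-1 in one of 24 kb (24 kb in both) and Mir124a-2 in one of 18.8 kb (20.2 and 18.8 kb); both families are abundant in neurons. Mir182, Mir96 and Mir183, whose mature forms share most of the seed shown above and are abundant in photoreceptors, lay in a 15.8 kb region (20.8 and 17.2 kb) that had no H3K27me3 or H3K9me3. The region of Mir129-2, 7.4 kb, was the only one of the 5 under H3K27me3, at 100% in both experiments. The long non-coding RNA genes Malat1 (11.4 kb, islands of 12.2 and 12.2 kb) and Neat1 (7.8 kb, islands of 8.2 and 7.8 kb), encode abundant nuclear RNAs and had neither repressive mark; both were chosen after their values were seen.

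Regions with the start of a single gene extended further into the gene than upstream of it. Over 220 such regions the median was 1.96 kb upstream and 6.16 kb downstream, and 194 were longer downstream (88.2%, against 88.2% of all shared regions with 1 start). The downstream side was over 3 times longer in 121 (55.0%, against 31.6%, and 44.3% in the next 500). The marks were followed at 256 of the 473 starts in regions not mostly under H3K9me3, so the shares do not cover all starts. Of the 256, 68.8% had H3K4me3 in both experiments 5 kb downstream and 23.4% had it 5 kb upstream. Of 275 starts followed in the next 500, out of 498, 21.1% had it 5 kb downstream. In narrower regions 2.0% of 7333 had it, a difference that the choice by width builds in. H3K4me1 was present in both experiments 10 kb downstream of 55.9% of the 256 starts. The share was 40.4% in the next 500 and 13.4% in narrower regions. H3K4me3 itself was present there at 17.6%, 10.5% and 2.88% of these starts. The choice did not use H3K4me1, but H3K4me1 lay over most H3K4me3 regions, so its difference is not independent of width. The part of width in it was not tested.

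**Figure D4:**
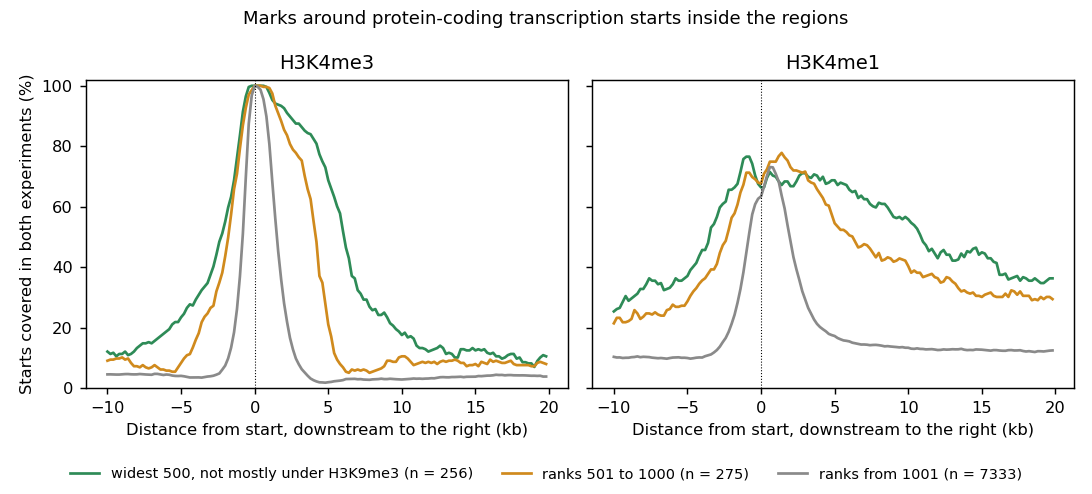
Share of protein-coding starts (%) with H3K4me3 (left) or H3K4me1 (right) in both experiments, against distance from the start in kb, downstream to the right. Starts are from the widest regions not mostly under H3K9me3 (256 starts), the next 500 (275) and all narrower ones (7333). They are a part of the starts in these regions. H3K4me1 at 10 kb downstream is at 55.9%, 40.4% and 13.4%.

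The promoters of genes in the 500 were less often CpG-rich than those of narrower regions. The ratio of observed to expected CpG was above 0.6 for 298 of 481 starts (62.0%), against 78.0% of starts in narrower regions and 48.9% of all starts. Of the 12 starts of rod and cone list genes inside the 500, all of them of rod genes, 1 was above 0.6. TAATCC, searched on both strands with overlapping matches allowed, was in the windows of 55 of 481 starts (11.4%), against 5.02% in narrower regions and 6.41% of all 20084 starts. Among the 12 rod starts it was in 5 (41.7%), among them Crx, Aipl1 and Sag shown above. Over all rod and cone starts, inside or outside the 500, it was in 10 of 27 (37.0%), and 3 of 27 (11.1%) were above 0.6 for CpG. A match describes the letters of the window and is no evidence of binding.

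Along the chromosomes, 94 regions (18.8%) lay within 100 kb of another of the 500, against 14.6% in the next 500, and 253 lay within 1 Mb (50.6%, against 49.4% in the next 500). They formed 42 groups, 6 of 3 or more regions and 36 pairs. Some neighbours were parts of a single island in 1 experiment, split by a gap in the other, so a group is not always one of separate domains. The Gm21119 region and the third widest shared a 144.8 kb island in Exp2, and the Ptp4a3 regions shared a 32.2 kb island in Exp1. How many of the 94 were split in this way was not counted. Joining runs 1 kb or less apart before ranking gave 101 in place of 94. The 2 groups of 5 were the chromosome 8 group from 20414601 to 20712000 (297.4 kb) and the Snhg14 group (202.8 kb), both wholly under H3K9me3, while 39 groups had no such region. The other groups of 3 or more were named after their values were seen. The Rax group on chromosome 18 held Rax, Cplx4, a complexin of photoreceptor synapses, and a region with no annotated gene within 91.8 kb. Within 36.6 kb, 3 regions lay in Epb41, a membrane skeleton gene, and 3 on chromosome 19 lay within 120.8 kb, among them the Rom1 region of 12.4 kb. The group of 3 on chromosome 9 (107 kb), 2 regions at Anp32a and 1 at Coro2b, joined a region mostly under H3K9me3, at Coro2b, to 2 that were not.

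Chromosome 11 had the most regions per Mb, 55 in all or 0.451 per Mb, and it also had the most shared regions per Mb, 10.4. Of its shared regions 4.32% were among the 500, below the 4.54% of chromosome 19. Chromosome 16 had the fewest, 5 or 0.0510 per Mb, and 1.04% of its shared regions. The 36 regions mostly under H3K9me3 lay on 12 chromosomes, with 9 on chromosome 8, 6 each on chromosomes 4 and 5, and 5 on chromosome 7.

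**Figure D5:**
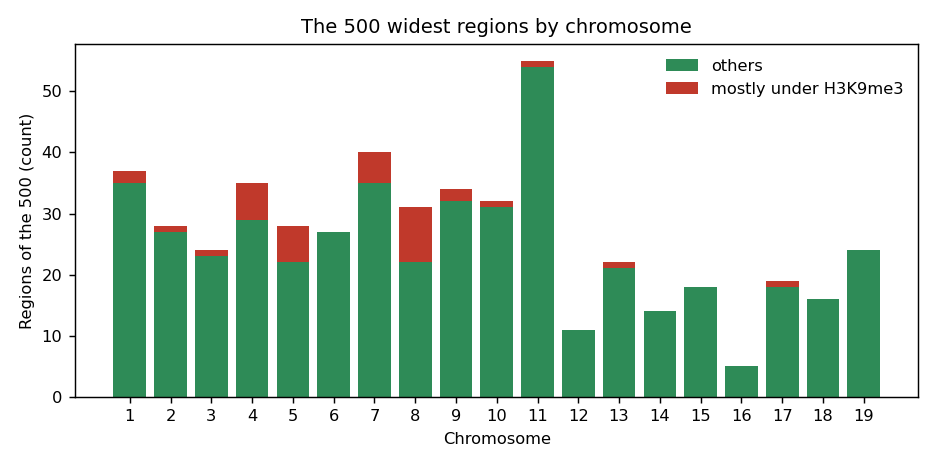
Number of the 500 regions on each autosome, with those mostly under H3K9me3 in red and the others in green. Chromosome 11 has the most, 55, and chromosome 16 the fewest, 5; 9 of the 36 red ones are on chromosome 8.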

How the data were processed

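ChIP-seq islands of 4 histone marks in 2 experiments were used, and 2 input libraries were not analysed here. Per the submitters' processing notes, reads were handled with BWA 0.7.5a, bedtools 2.17, FastQC and SAMtools 1.3.1, and SICER called islands on mm10; which control it used and its settings are not stated here. Each deposited island has a position and a p-value from the authors, with no statement of whether it was corrected for multiple testing. The files hold no read counts, so depth is unknown and no interval was computed. Island steps were 200 bp for H3K4me3 and H3K4me1, 3000 bp for H3K9me3 and 5000 bp for H3K27me3.

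Intersections, cover and distances were computed with Python 3.11.15, pandas 2.3.3 and numpy 2.4.6, and figures drawn with matplotlib 3.10.9. The intersection was tested on simulated data and recovered 50 of 50 runs. Ties in width were ordered by chromosome name, then start. Genes, promoters and microRNAs came from RefSeq tables of GRCm38.p6, whose coordinates are those of mm10. Promoter and start values leave out chromosome 18. Of 23 microRNA genes held, 19 had a mature sequence in the table.

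The regions and gene lists were chosen with earlier results of these data known. Genes were named by rule: those of the 20 widest regions, ranks 496 to 505, up to 8 held genes per list, the 5 widest of each mark class, and the extremes by chromosome and group. Exceptions are stated or complete a list's count. Some genes are not reported here. Alternatives were each experiment alone, other set sizes, stricter p-values, stricter overlap, runs 1 kb or less apart joined, sex chromosomes kept, gene-end windows of 0 bp and 5 kb, neighbours within 1 Mb, another tie order, and leaving out regions mostly under H3K9me3.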

Additional observations from a re-analysis of the deposited data

How the results depend on the processing

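Of 81 alternative values for 8 results, 67 stayed within 1.5 times the count or, for the median width, within 0.849 kb, and 14 did not. The width limit is the SD of the median island widths of the 2 experiments, not the spread of the regions. Main values were a median width of 8.4 kb and 467 regions with H3K4me1, 72 with H3K27me3, 38 with H3K9me3, 357 at a gene end, 20 at a photoreceptor gene, 6 at a Müller glia gene and 94 within 100 kb of another. Choosing the regions from 1 experiment alone gave widths of 11.0 kb (Exp1) and 9.2 kb (Exp2), 121 and 125 regions with H3K27me3, and 90 and 73 with H3K9me3; a mark then needs only 1 experiment. The widest 250 and the widest 1000 had medians of 10.4 and 6.6 kb, which the choice sets. Islands with p-values at or below their list's median gave 18 regions with H3K27me3 and 3 with H3K9me3, with islands of every mark, H3K4me3 included, filtered in this way. Requiring over 50% of a gene gave 11 photoreceptor and 3 Müller glia regions. Within 1 Mb, 253 regions had a neighbour. Leaving out regions mostly under H3K9me3, an alternative chosen after seeing the data, left 38 with H3K27me3 and 2 with H3K9me3. The removal itself sets both counts. The overlap setting gives no value for the width or the 100 kb count. No paired analysis was possible because the results come from no test. Depth is unknown, and its part in missing islands was not tested.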
